A study of Mus musculus with 35 samples.

Results

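ERVL and MaLR subfamilies of endogenous retroviral elements were followed through male germ cells of Smg6-cKO and CTRL mice. They are the 221 entries that the repeat annotation assigns to the family ERVL (113) or ERVL-MaLR (108), among 1146 element rows and 25557 rows of genes and elements in all. Of these, 149 are LTRs and 72 are internal parts, whose names end in -int. By name, 8 belong to MERVL and MT2, 19 to MT, 29 to ORR1, 58 to MLT1 and 10 to MLT2, and 97 to other subfamilies. At least 10 counts in total were found for 212 of the 221 in spermatocytes, for 214 in round spermatids and for 216 in isolated chromatoid bodies (CBs), and only these entered the tests. The members just inside this limit held 10 and 11 counts in spermatocytes (LTR108d_Mam and MER76-int), and the nearest ones outside held 6 (LTR52-int and MLT1E3-int). All 221 names were also found among 1489 repeats in the table of small RNA reads, with 10 or more reads over its 16 libraries for 175 of them.

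These elements are remnants of retroviruses that belong to the third class of endogenous retroviruses of the mouse. A full copy has an internal part between a pair of long terminal repeats (LTRs), and most copies in the genome are solitary LTRs left after recombination. MERVL, with its LTR MT2_Mm, is a young ERVL subfamily known for its transcription in the 2-cell embryo, whereas the MaLR branch (MT, ORR1 and MLT1 elements) has lost the retroviral genes and acts mainly as a source of promoters and first exons, among others in oocytes and male germ cells. LTR elements are held down by DNA methylation, by histone H3K9 methylation through SETDB1 and TRIM28, and in germ cells by the piRNA pathway, in which short RNAs guide PIWI proteins to element transcripts.

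The study removed the endonuclease SMG6, which cuts transcripts in nonsense-mediated RNA decay, from mouse male germ cells. Smg6-cKO animals were adult Smg6(fx/fx);Ngn3Cre+ males, in which Cre under the Ngn3 promoter deletes exon 9 in spermatogonia of the early postnatal testis, and the CTRL animals were littermates without Cre, Smg6(fx/fx);Ngn3Cre- or Smg6(fx/wt);Ngn3Cre-, all on a mixed C57Bl/6J and SV129 background. Long RNA was read in spermatocytes (Spc) and round spermatids (RS) enriched on a BSA gradient, with 3 cKO and 3 CTRL libraries for each cell type after poly(A) selection, and in CBs, the perinuclear RNA granules of round spermatids, taken by DDX4 immunoprecipitation from pooled mice, with 3 cKO and 4 CTRL libraries of total RNA. Small RNA was read in 5 cKO and 5 CTRL spermatocyte libraries and in 3 and 3 round spermatid libraries. The study's methods take small RNA from the samples used for long RNA, of which there were 3 per group, so the 5 spermatocyte libraries may not all be separate samples, and p-values on them would then be too small. Libraries held 3.81e+07 to 4.99e+07 counts in spermatocytes and round spermatids, 3.97e+06 to 1.67e+07 in CBs, and 1.13e+06 to 2.81e+06 in the small RNA repeat table. Elements took 3.88% to 5.96% of the counts in the 12 poly(A) libraries and 25.5% to 38.8% in CBs, so the levels of the tables are not compared with each other.

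The gene-level count of Smg6 was not called lower in cKO libraries (log2FC 0.22 in Spc, 0.05 in RS and -0.12 in CB, adjusted p = 0.361 and above by edgeR), but that count covers the whole locus and not the floxed exon alone. In round spermatids 9 of 10 round spermatid markers fell in cKO, from a summed 2900.4 to 3096 CPM (counts per library scaled to a fixed total) in CTRL to 1821 to 2025 in cKO. The 10 late spermatid markers all fell, from a summed 22549 to 27890 CPM in CTRL to 2176 to 2332 in cKO, while 8 of 8 macrophage, 6 of 6 Leydig, 6 of 6 Sertoli and 5 of 6 erythroid markers rose. The late spermatid markers also fell in spermatocytes (10 of 10) and CBs (10 of 10). In spermatocytes 7 of 8 macrophage and 2 of 6 Leydig markers rose and 6 of 6 Sertoli markers fell. The summed Leydig markers there were at 601 to 1270 CPM in cKO and 123 to 443 in CTRL. In CBs 9 of 10 round spermatid markers fell while 6 of 8 macrophage and 6 of 6 Leydig markers rose. The part of these shifts in the results on elements was not tested, and in such bulk fractions fewer cells of a type and less RNA per cell cannot be told apart. Factors of 1.19 to 1.24 in cKO against 0.801 to 0.854 in CTRL round spermatids in TMM scaling, which sets libraries on a common scale by the trimmed mean of their log ratios, went with these shifts. Counts of called members in long RNA are given both scaled with genes and scaled among elements only, and a value with no scaling named is scaled with genes. The third cKO round spermatid library had 3.88% of its counts on elements, against 5.52% and 5.60% in the other two. Below, a normalized count is a library's count scaled to the mean library size of the comparison, summed over all copies of a subfamily, so that levels follow copy number and length and are not compared between subfamilies. Calls rest on the quasi-likelihood test of edgeR, with p-values adjusted after Benjamini and Hochberg over every row tested. Fits among elements hold no gene rows, so their p-values are adjusted over element rows only. The study's methods prepare the cell fractions from several testes, so a library may hold more than 1 animal, and nothing in the labels ties a library to animals, so a p-value measures the spread between these libraries.

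Among all counts, ERVL and MaLR together made up 0.579% to 0.853% in cKO and 0.774% to 0.794% in CTRL round spermatids, and 0.685% to 0.867% in cKO and 0.758% to 0.881% in CTRL spermatocytes, so the groups overlapped in both. As a share of the counts on elements they made up 14.8% to 15.2% (n = 3) in cKO against 16.6% to 17.2% (n = 3) in CTRL round spermatids, with no overlap (exact permutation test, two-sided, p = 0.1, the smallest that 3 against 3 can give; adjusted p = 0.174 over 54 shares). CTRL round spermatids also stood above CTRL spermatocytes on this measure (14.6% to 15.6%, n = 3; exact permutation p = 0.1), while cKO round spermatids overlapped with cKO spermatocytes (14.4% to 15.3%, n = 3; exact permutation p = 0.5). On the same measure the families differed between cell types. ERVL alone was lower in round spermatids, at 3.36% ± 0.109 against 3.57% ± 0.0954 in CTRL and 3.16% ± 0.0870 against 3.55% ± 0.207 in cKO (mean ± SD, n = 3 each). MaLR was higher, at 13.6% ± 0.237 against 11.5% ± 0.487 in CTRL and 11.8% ± 0.177 against 11.2% ± 0.248 in cKO. None of these 4 comparisons overlapped (exact permutation p = 0.1 for each). As a share of all counts, MaLR in round spermatids overlapped with spermatocytes in CTRL (0.626% against 0.621%, exact permutation p = 0.9) and in cKO (0.591% against 0.611%, exact permutation p = 0.8), while ERVL was lower without overlap in CTRL (0.155% against 0.192%, exact permutation p = 0.1) and overlapped in cKO (0.158% against 0.193%, exact permutation p = 0.2). In CBs the share was 10.3% ± 1.07 (mean ± SD, n = 3) in cKO and 11.9% ± 0.587 (n = 4) in CTRL, again without overlap (exact permutation p = 0.0286, the smallest possible; adjusted p = 0.119), whereas the shares of all counts overlapped at 3.30% ± 0.825 and 3.70% ± 0.709 (exact permutation p = 0.457). In small RNA the 221 repeats held 23.6% ± 0.103 (n = 5) of the counts in cKO and 24.1% ± 0.172 (n = 5) in CTRL spermatocytes (exact permutation p = 0.00794, adjusted p = 0.0877).

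**Figure D1:**
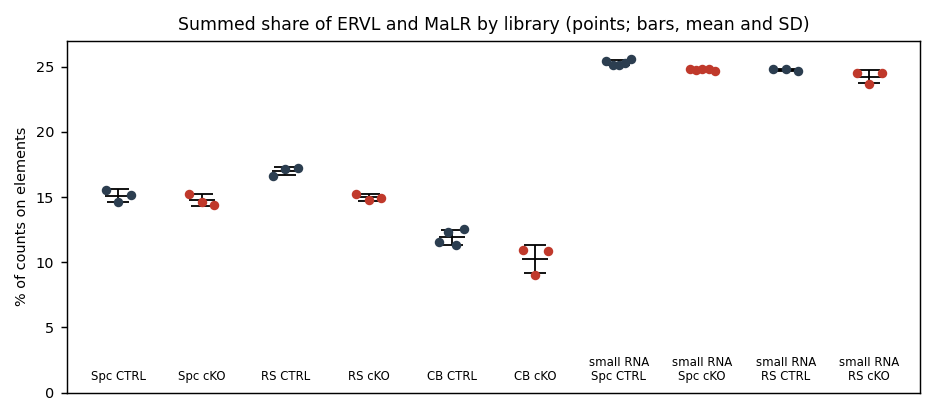
Counts on ERVL and MaLR as a percentage of the counts on elements (y axis) in each library (points) by group, with mean and SD. In round spermatids the 3 cKO libraries lie between 14.8% and 15.2% and the 3 CTRL libraries between 16.6% and 17.2%.

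In spermatocytes few subfamilies differed between genotypes. Scaled with genes, 4 of 212 passed the threshold (adjusted p of 0.05 or less, edgeR) as higher and 4 as lower in cKO, where 11.6% of all rows rose and 11.7% fell and where 2.78% and 1.58% of all elements did. Among elements 6 rose and 9 fell (4.17% and 2.78% of all elements), and 3 and 3 were called the same way under both. The median log2FC was -0.03, as it was for all elements. ORR1A0-int, the internal part of a young MaLR subfamily, fell. Its normalized counts were 1222, 1779.5 and 1676 in cKO and 3818, 2370.1 and 2714 in CTRL spermatocytes (log2FC -0.93 ± 0.21 SE, adjusted p = 0.0203; -0.90 with adjusted p = 0.00222 among elements). All 3 cKO libraries lay below the lowest CTRL library, and the call was lost without the first cKO library (log2FC -0.78) or the third CTRL library. Its LTR ORR1A0 had 1363, 1986 and 1815 counts in cKO and 2751, 1912 and 2117 in CTRL, which overlapped (log2FC -0.39 ± 0.19 SE, adjusted p = 0.162).

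In spermatocytes 3 members rose under both scalings, all from old subfamilies. The LTR MLT1J1 had 1274, 1413 and 1243 normalized counts in cKO against 728, 706 and 709 in CTRL (log2FC 0.87 ± 0.12 SE, adjusted p = 0.00394). LTR16E1, an ERVL LTR, had 439, 412 and 406 counts against 227, 220.3 and 191 (log2FC 0.98 ± 0.16 SE, adjusted p = 0.00779). For both, the cKO libraries were close together and well above every CTRL library, and both calls held among elements. MLT2B5 rose by less (log2FC 0.62 ± 0.15 SE, adjusted p = 0.0235), and its call was lost when any of 4 of the 6 libraries was left out. MLT1K (log2FC -0.30 ± 0.09 SE, adjusted p = 0.0476) and the low LTR53B (log2FC -0.76 ± 0.23 SE, adjusted p = 0.0488) were called lower near the threshold, and both calls were lost whichever of the 6 libraries was left out. None of the 8 MERVL and MT2 elements passed the test under either scaling, and of the 19 MT elements 0 passed with genes and 1 among elements, MTB_Mm-int (-0.45, adjusted p = 0.0319). MERVL-int itself had 2274, 2890.0 and 3168 counts in cKO and 3644, 2527 and 2999 in CTRL (log2FC -0.14 ± 0.17 SE, adjusted p = 0.594), and the groups overlapped.

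In round spermatids of cKO animals most calls were to lower levels. Scaled with genes, 113 of 214 subfamilies fell and 3 rose, where 30.0% of all rows fell and 35.3% rose, and where 40.5% of all elements fell and 2.76% rose. The median log2FC of the subfamilies was -0.51, against -0.43 for all elements and 0.15 for all rows. Scaled among elements, 51 fell and 14 rose (14.7% and 13.9% of all elements), with a median of -0.06, and all 51 were among the 113. Library size alone, with no TMM factor, left 23 lower and 19 higher, where 16.1% of all rows fell and 52.5% rose and where 7.56% of all elements fell and 12.7% rose. The 51 lower and 3 higher ones that scaling with genes and among elements both called are described here.

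By name group, MT elements fell in 15 of 19 when scaled with genes and in 6 among elements, ORR1 in 22 and 10 of 29, MLT1 in 33 and 17 of 53, MLT2 in 5 and 3 of 10, and MERVL and MT2 in 7 and 1 of 8. Within these groups none rose with genes, and 5 rose among elements, 4 of MLT1 and 1 of ORR1. The 1 element of MERVL and MT2 lower under both was MT2B1. The remaining subfamilies had 31 lower and 3 higher of 95 with genes, and 14 and 9 among elements.

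ORR1A0-int had the lowest log2FC of the ORR1 and MT elements, and its LTR fell with it. The internal part had 2905, 2880.2 and 1877 normalized counts in cKO and 7143, 6985 and 7171 in CTRL round spermatids (log2FC -1.48 ± 0.16 SE, adjusted p = 6.74e-05; -1.03 with adjusted p = 2.85e-05 among elements). For the LTR ORR1A0 the counts were 2175, 2388 and 1330.5 and 4240.2, 4209.7 and 4067 (log2FC -1.09 ± 0.19 SE, adjusted p = 0.00116; -0.65 with adjusted p = 0.00177 among elements). The CTRL libraries were close together, and every cKO library lay below them, the third cKO library lowest. ORR1A0-int and MLT1E1-int were the 2 members called lower under both scalings in spermatocytes as well as in round spermatids, out of 3 such members in the former and 51 in the latter. The same overlap over all elements was not computed, so this one is not read as particular to the members.

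MLT1 elements, the oldest MaLR branch, held the members with the lowest fold changes. The LTR MLT1F1 had 1428, 1493 and 1269 counts in cKO against 4201, 3682 and 4296 in CTRL (log2FC -1.54 ± 0.10 SE, adjusted p = 3.79e-06; -1.06 with adjusted p = 0.000292 among elements). Its internal part MLT1F1-int fell further from far lower counts (log2FC -1.78 ± 0.37 SE, adjusted p = 0.00298), and so did MLT1E1-int, with 12.8, 28.3 and 17.7 against 90.3, 131 and 123 (log2FC -2.54 ± 0.35 SE, adjusted p = 0.000298). All CTRL libraries were above all cKO libraries for these 3 members. In all, 6 members passed both an adjusted p of 0.05 and a log2FC of -1.5 or less, and 5 of them were MLT1 elements (10% of all rows and 3.50% of all elements passed both). The 3 that rose under both scalings were ERVL subfamilies with low or moderate counts: LTR79 with 753, 585 and 674 against 434, 517 and 404 (log2FC 0.57 ± 0.15 SE, adjusted p = 0.00999), HERV16-int (log2FC 0.78 ± 0.24 SE, adjusted p = 0.0206; call lost when any of 3 libraries was left out) and LTR55, which was below the count limit for naming and was picked out after its values were seen (log2FC 1.30 ± 0.39 SE, adjusted p = 0.0178).

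The subfamilies with most counts showed the dependence on scaling. MTD, a MaLR LTR that took the most counts of all members, had 25098, 24529.5 and 17486 normalized counts in cKO and 30054, 28616 and 31430.3 in CTRL (log2FC -0.42 ± 0.13 SE, adjusted p = 0.0186), but its log2FC was 0.03 with adjusted p = 0.57 among elements. ORR1E and MTEa kept their calls among elements at -0.27 with adjusted p = 0.00212 and -0.26 with adjusted p = 0.00422, with -0.72 ± 0.14 and -0.71 ± 0.12 when scaled with genes. MTC (-0.44 ± 0.16, adjusted p = 0.0354 with genes) and MTA_Mm (-0.49 ± 0.16, adjusted p = 0.0271) lost theirs, at 0.00 with adjusted p = 0.984 and -0.05 with adjusted p = 0.597. So did MLT1A0 (-0.59 with genes and -0.13 with adjusted p = 0.103 among elements). Scaled with genes, the calls of MTC and MTA_Mm were each lost when any of 3 of the 6 libraries was left out. For MERVL-int the counts were 2987, 2847 and 1785 in cKO and 3202, 3369 and 3547 in CTRL, and neither scaling gave a call (log2FC -0.41 ± 0.18 SE, adjusted p = 0.0689; 0.03 with adjusted p = 0.818 among elements), although DESeq2 called it lower with genes (-0.49), as did edgeR when either of 2 of the 6 libraries was left out. The third cKO library was the lowest of the 6 for MTD and MERVL-int. The LTR of MERVL, MT2_Mm, was called with genes (log2FC -0.67 ± 0.20 SE, adjusted p = 0.0162) and not among elements (-0.24 with adjusted p = 0.104). MTA_Mm-int was called under neither (log2FC -0.44 ± 0.18 SE, adjusted p = 0.0661; 0.00 with adjusted p = 0.998 among elements), but was called lower with genes when any of 3 of the 6 libraries was left out.

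**Figure D2:**
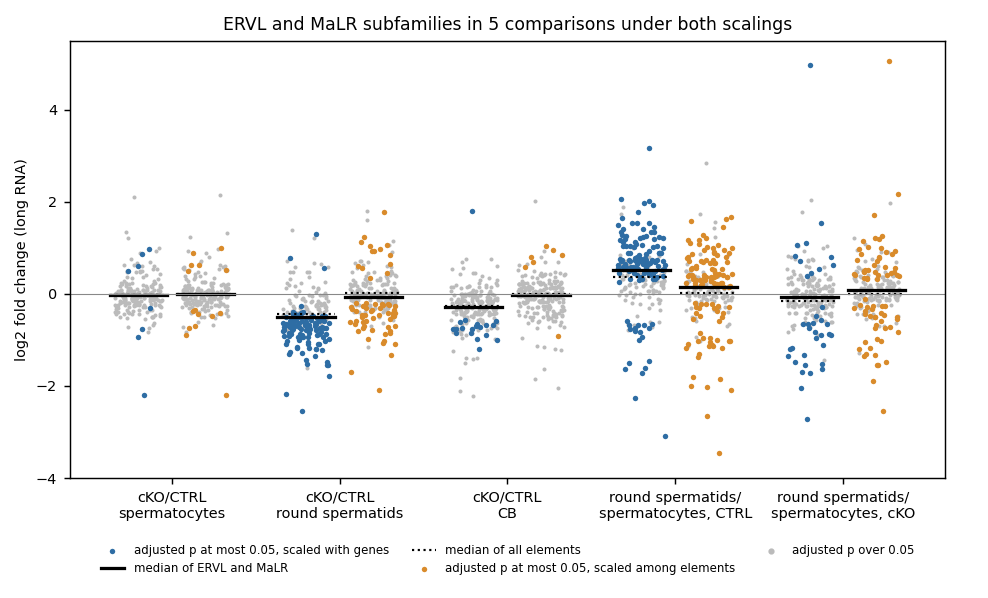
Log2 fold change (y axis) of each ERVL and MaLR subfamily (points) in 5 comparisons of long RNA, scaled with genes (left, blue calls) or among elements (right, orange calls), with the medians of the members and of all elements. In cKO against CTRL round spermatids the members' median is -0.51 with genes and -0.06 among elements.

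Between cell types in CTRL animals, many subfamilies rose. Between the same libraries 6 of 6 Leydig, 6 of 6 Sertoli and 8 of 10 spermatocyte markers fell, and 5 of 6 erythroid, 9 of 10 round spermatid and 10 of 10 late spermatid markers rose. The part of these shifts was not tested. In round spermatids against spermatocytes 110 of 211 rose and 19 fell when scaled with genes (32.6% and 35.5% of all rows, 41.0% and 11.9% of all elements), with a median log2FC of 0.51 against 0.36 for all elements. Among elements 76 rose and 39 fell (24.8% and 26.1% of all elements), and all 76 and 19 of the 39 were called the same way with genes. Library size alone, with no TMM factor, left 46 higher and 40 lower, with a median of 0.10 (22.6% and 47.5% of all rows, 15.3% and 26.0% of all elements). ORR1A0-int rose from 3346, 2075 and 2369 counts in spermatocytes to 6824, 6927 and 6847 in round spermatids (log2FC 1.40 ± 0.17 SE, adjusted p = 0.00027; 1.07 with adjusted p = 3.65e-05 among elements), and ORR1A0 rose with it (log2FC 1.03 ± 0.14 SE, adjusted p = 0.000416). No spermatocyte library reached a round spermatid library for either. MLT1F1-int (log2FC 1.98 ± 0.35 SE, adjusted p = 0.00159), MLT1E1-int (log2FC 1.93 ± 0.26 SE, adjusted p = 0.000425) and LTR16D1 (log2FC 1.79 ± 0.34 SE, adjusted p = 0.00234) rose most among members with at least 50 normalized counts.

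The strongest fall between cell types was in LTR102_Mam, an old ERVL LTR, from 2470.3, 2887 and 2513 counts in CTRL spermatocytes to 278, 345 and 299 in CTRL round spermatids (log2FC -3.09 ± 0.12 SE, adjusted p = 1.85e-05). MLT1E (log2FC -1.72 ± 0.15 SE, adjusted p = 0.000106) and MLT1J-int (log2FC -1.64 ± 0.16 SE, adjusted p = 0.000152) also fell. The MT elements split by scaling: MTA_Mm had a log2FC of 0.15 with genes and -0.21 with adjusted p = 0.019 among elements, and MTC 0.04 and -0.32 with adjusted p = 0.00098. MTD rose slightly with genes (log2FC 0.25 ± 0.10 SE, adjusted p = 0.0472), a call that was lost when any of 5 of the 6 libraries was left out, and had -0.10 with adjusted p = 0.0887 among elements. MT2_Mm rose with genes (log2FC 0.60 ± 0.14 SE, adjusted p = 0.0072) and just missed the threshold among elements, at 0.25 with adjusted p = 0.0533.

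In cKO animals 11 of 214 subfamilies rose from spermatocytes to round spermatids and 26 fell (15.7% and 22.7% of all rows, 3.49% and 15.7% of all elements), with a median of -0.08. Among elements the counts were 38 and 36 (15.9% and 19.8% of all elements). LTR102_Mam fell from 2355, 2788 and 1785 to 378, 292 and 378 counts (log2FC -2.72 ± 0.20 SE, adjusted p = 0.000152), and MLT1E (log2FC -1.71 ± 0.16 SE, adjusted p = 0.000276) and RMER15-int (log2FC -1.69 ± 0.15 SE, adjusted p = 0.000243) fell too. ORR1A0-int rose from 1269, 1849 and 1769.5 to 3168, 3273 and 2147 (log2FC 0.81 ± 0.20 SE, adjusted p = 0.0145), a call that was lost without the first round spermatid library. LTR16D1 (log2FC 1.10 ± 0.29 SE, adjusted p = 0.0188) and MER70B (log2FC 0.83 ± 0.24 SE, adjusted p = 0.0269) rose from lower counts, and each call was lost when any of 3 of the 6 libraries was left out. Leaving out single libraries moved the count of higher members between 1 and 15. Between these libraries 8 of 8 macrophage, 6 of 6 erythroid and 7 of 10 round spermatid markers rose, and 5 of 6 Leydig and 8 of 10 spermatocyte markers fell, and their part was not tested.

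An interaction term over all 12 libraries tested whether the genotype difference in round spermatids differs from that in spermatocytes. Scaled with genes, it was negative and called for 59 of 216 members and positive for 0 (1 at an unadjusted p under 0.05, and 0 by DESeq2), where 16.7% of all rows and 19.2% of all elements were called negative and 17.5% and 0.543% positive. Among elements 4 were negative and 1 positive (1.72% and 1.63% of all elements). With library size alone the balance turned, to 2 negative and 6 positive, where 2.47% of all rows and 0.905% of all elements were called negative and 36.7% and 4.52% positive. The 4 were LTR16C, MLT1F, MLT1F1 and MTEa, and all were also among the 59. For MLT1F1 the interaction was -1.31 ± 0.19 (SE; adjusted p = 0.00086; -0.76 with adjusted p = 0.00879 among elements). In one scaling over all 12 libraries MLT1F1 had 1745 ± 331 counts in CTRL and 1495 ± 158 in cKO spermatocytes, and 4356 ± 366 in CTRL and 1503 ± 124 in cKO round spermatids (means of 3 libraries with SD). The CTRL round spermatid group stood apart from the other 3 groups, which lay close together. ORR1A0-int was not called (-0.63 ± 0.28, adjusted p = 0.103) except without the first CTRL spermatocyte library (-0.85), nor was ORR1A0 (-0.78 ± 0.29, adjusted p = 0.0563) except when any of 3 of the 12 libraries was left out. ORR1E, MLT1A0, MTD and RMER15 were called with genes, between -0.78 and -0.57, and not among elements, and the call of MTD was lost when any of 7 of the 12 libraries was left out.

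**Figure D3:**
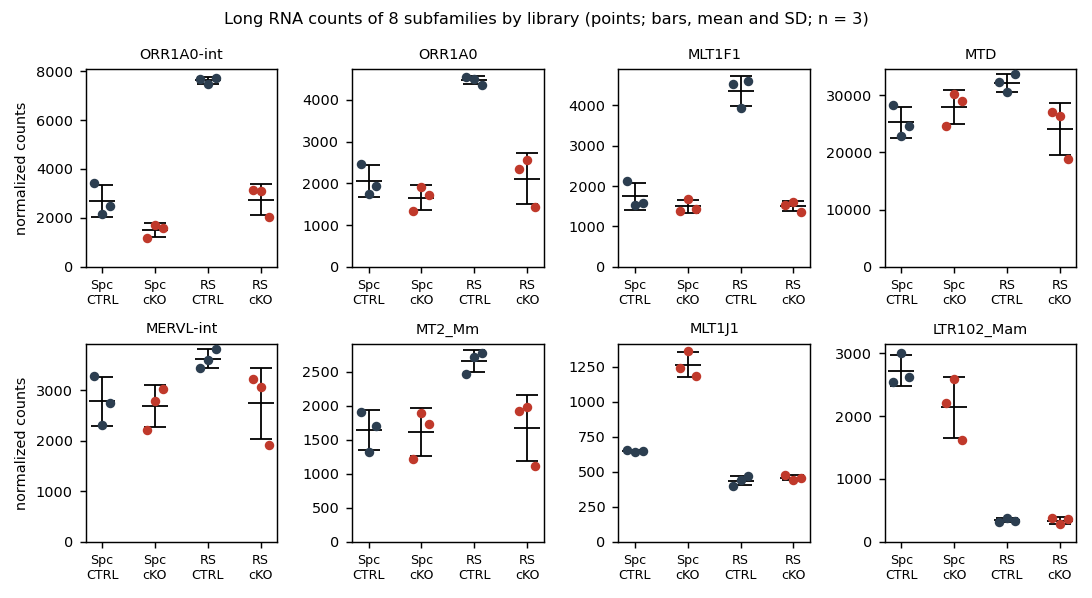
Normalized counts of long RNA (y axes, each from 0) for 8 subfamilies in the 12 spermatocyte and round spermatid libraries (points, scaled together), with mean and SD of each group. ORR1A0-int, ORR1A0 and MLT1F1 are highest in the 3 CTRL round spermatid libraries, MLT1J1 in the 3 cKO spermatocyte libraries, and LTR102_Mam in spermatocytes of both genotypes.

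In isolated CBs 18 of 216 subfamilies fell and 1 rose when scaled with genes (15.1% and 12.3% of all rows, 7.79% and 2.08% of all elements), with a median log2FC of -0.29 against -0.27 for all elements. Among elements 1 fell and 6 rose (2.54% and 7.16% of all elements), with a median of -0.02. The count of lower members ran from 3 to 34 when single libraries were left out, and it was 3 with CTRL libraries 1 and 4 alone and 1 with CTRL libraries 2 and 3 alone, whose column names carry another prefix. MLT1H-int was the 1 member called lower under both scalings. It had 137, 112 and 108 counts in cKO and 240.5, 372, 259.9 and 218 in CTRL (log2FC -1.19 ± 0.23 SE, adjusted p = 0.00132), without overlap, and it fell in round spermatids as well (log2FC -1.43 ± 0.18 SE, adjusted p = 0.00016). MER70B (log2FC -0.99 ± 0.32 SE, adjusted p = 0.0325) and LTR16B (log2FC -0.90 ± 0.29 SE, adjusted p = 0.0302) fell with genes only, and leaving out most single libraries ended either call.

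ORR1A0-int, lower in both cKO cell fractions, did not stand apart in CBs, with 3615, 2827 and 1729 counts in cKO and 2149, 3597, 3699.5 and 1642 in CTRL (log2FC -0.02 ± 0.30 SE, adjusted p = 0.962). A difference was not detectable at this depth and spread. MERVL-int (log2FC -0.05 ± 0.27 SE, adjusted p = 0.909), MTD (log2FC -0.33 ± 0.29 SE, adjusted p = 0.425) and MTC (log2FC -0.19 ± 0.26 SE, adjusted p = 0.628) were not called either. MTA_Mm-int varied widely between libraries, with 14473, 14731 and 6817 in cKO and 6371, 9540.4, 11547 and 5065 in CTRL (log2FC 0.56 ± 0.32 SE, adjusted p = 0.213).

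Small RNA reads on the same subfamilies changed in both directions. Counts here were scaled among repeats, and the alternative scaling by piRNA clusters gave 37 higher and 35 lower in spermatocytes (18.5% and 20.9% of all repeats). In cKO spermatocytes 40 of 161 tested members rose and 35 fell, where 19.5% of all repeats rose and 20.5% fell. Of the internal parts 20 rose and 6 fell of 45, and of the LTRs 20 rose and 29 fell of 116. In MT elements 8 of 10 internal parts rose and 1 fell while 3 of 9 LTRs rose and 5 fell. ORR1 followed with 7 of 14 internal parts higher and 1 lower, and with 4 of 14 LTRs higher and 5 lower. MLT1 went the other way, with 3 of 36 higher and 12 lower. The difference between internal parts and LTRs was not tested. Library size alone, with no TMM factor, moved the totals to 62 higher and 22 lower, and those of all repeats to 33.6% and 12.3%.

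In cKO round spermatids 22 of 153 members rose and 29 fell (11.4% and 14.8% of all repeats). Internal parts had 9 higher and 6 lower of 44, LTRs had 13 higher and 23 lower of 109, and MLT1 had 0 higher and 10 lower of 36. MT had 4 of 10 internal parts higher and 2 lower and 3 of 9 LTRs higher and 5 lower. ORR1 had 3 of 14 internal parts and 4 of 14 LTRs higher, with 1 of each lower, so the counts by part of the element seen in spermatocytes were not repeated for ORR1. Scaling by piRNA clusters gave 24 and 24 (12% and 12% of all repeats), and library size alone 48 and 18 (27% and 7.62% of all repeats). The second cKO library stood apart from the other two over the repeats, and without it 37 rose and 37 fell. Of the members tested in both cell types, 15 rose in both, which is 37.5% of those higher in spermatocytes and 68.2% of those higher in round spermatids, and 25 fell in both, which is 71.4% and 86.2%. Over all 908 repeats tested in both, these shares were 36.0% and 63.8% of the higher ones and 59.8% and 85.3% of the lower ones. No member was called in opposite directions in the 2 cell types.

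MT elements of the A and B types rose in both cell types. MTA_Mm-int had 361, 429, 393, 339 and 390.4 small RNA counts in cKO and 274, 225, 260.4, 251 and 194 in CTRL spermatocytes (log2FC 0.67 ± 0.10 SE, adjusted p = 9.92e-05), and 540.0, 502 and 624 against 276, 253 and 258 in round spermatids (log2FC 1.08 ± 0.13 SE, adjusted p = 0.000525). Neither comparison overlapped. The LTR MTA_Mm had 562, 664 and 698 against 292, 292 and 297 in round spermatids (log2FC 1.13 ± 0.12 SE, adjusted p = 0.000393) and rose by less in spermatocytes (log2FC 0.43 ± 0.10 SE, adjusted p = 0.00273), where the second cKO library lay within the CTRL range. MTB_Mm-int, outside the rule for named members and picked out after its values were seen, rose most of the MT internal parts (1.49 ± 0.16 in Spc and 1.52 ± 0.23 in RS, log2FC ± SE), from 17.03, 14.3 and 19.5 counts in CTRL to 38.7, 52.6 and 58.5 in cKO round spermatids.

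MERVL-int, the MERVL body, rose in spermatocytes. It had 2657, 1802, 2963, 3139 and 3691 counts in cKO and 1848, 1743, 2002, 2124 and 2147 in CTRL spermatocytes (log2FC 0.53 ± 0.14 SE, adjusted p = 0.00612), with 1 cKO library inside the CTRL range. In round spermatids it had 1955, 3869 and 2142 against 1569.8, 1641 and 1774 (log2FC 0.68 ± 0.23 SE, adjusted p = 0.0651), and the second cKO library was far above the other two. DESeq2 called this difference (0.66), as did edgeR without any 1 of the 3 cKO libraries. Over all leave-outs of single libraries its log2FC ran from 0.32 to 0.86. MT2_Mm rose in round spermatids, from 121, 112 and 106 in CTRL to 174, 262 and 252 in cKO (log2FC 1.03 ± 0.18 SE, adjusted p = 0.00377). It was not called in spermatocytes (log2FC 0.31 ± 0.19 SE, adjusted p = 0.22) except in 1 leave-out of a single library. ORR1A4-int, ORR1B2 and ERVL-B4-int rose most in spermatocytes among members with at least 50 normalized counts. ORR1A4-int had 3971, 4755, 4139, 4053 and 4255 counts in cKO and 2513, 2425, 2532, 2519 and 2442 in CTRL (log2FC 0.77 ± 0.05 SE, adjusted p = 3.84e-08), ORR1B2 changed by 0.76 ± 0.07 (adjusted p = 1.15e-06) and ERVL-B4-int by 0.77 ± 0.14 (adjusted p = 0.000422).

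ORR1F-int and RMER10A, both among the members with most small RNA counts, fell in both cell types. ORR1F-int had 24093, 21646 and 23825 counts in cKO and 36757, 38435 and 37132 in CTRL round spermatids (log2FC -0.69 ± 0.06 SE, adjusted p = 0.000117), and it fell by less in spermatocytes (log2FC -0.47 ± 0.07 SE, adjusted p = 9.55e-05). RMER10A, an ERVL LTR, had 16938, 15415 and 17832 against 26528, 27812 and 27838 (log2FC -0.71 ± 0.07 SE, adjusted p = 0.000154; -0.49 ± 0.06 in Spc). Every cKO library was below every CTRL library for both. ORR1F, the LTR with the most counts of all, fell slightly in spermatocytes (log2FC -0.23 ± 0.04 SE, adjusted p = 0.000242) and was not called in round spermatids (log2FC -0.21 ± 0.07 SE, adjusted p = 0.0714).

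The largest falls among members with at least 50 small RNA counts were in MTEa-int, RMER10B, MLT1A and MER68B. MTEa-int had 33.0, 26.3 and 21.8 counts in cKO and 138, 134 and 151 in CTRL round spermatids (log2FC -2.39 ± 0.19 SE, adjusted p = 0.000117), and fell in spermatocytes too (log2FC -1.70 ± 0.19 SE, adjusted p = 4.24e-06). It was the 1 MT internal part that went against its group in spermatocytes. MER68B had 989, 769 and 932 against 2533, 2538 and 2692 in round spermatids (log2FC -1.53 ± 0.11 SE, adjusted p = 0.000117), and RMER10B fell to a like degree in both cell types (-1.28 ± 0.12 in Spc and -1.25 ± 0.12 in RS). MLT1A fell in spermatocytes (log2FC -1.28 ± 0.14 SE, adjusted p = 4.09e-06) and in round spermatids (log2FC -1.14 ± 0.25 SE, adjusted p = 0.0102). Of the MaLR LTRs named in every comparison, MLT1A0 fell in both cell types (-0.27 ± 0.05 and -0.37 ± 0.06), as did ORR1E (-0.19 ± 0.04 and -0.29 ± 0.07), whose call in round spermatids was lost when any of 4 of the 6 libraries was left out, while MTC was called in round spermatids only (log2FC -0.18 ± 0.06 SE, adjusted p = 0.0433) and its call held under no other setting but leaving out cKO library 2 or 3. Whether the genotype differences of any of these differ between cell types was not tested in small RNA.

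**Figure D4:**
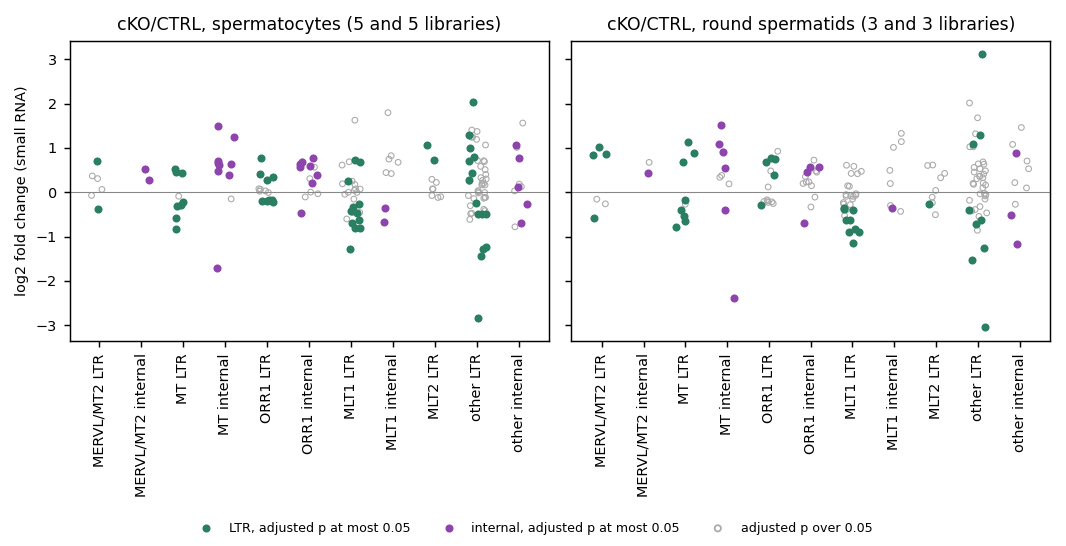
Log2 fold change of small RNA counts, cKO against CTRL (y axis), for each member (points) by name group and part of the element (x axis), in spermatocytes (left) and round spermatids (right), with filled points for members that passed the threshold. In spermatocytes 8 of 10 MT internal parts are called higher, while 12 of 36 MLT1 members are called lower.

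Long and small RNA of a subfamily were set side by side in round spermatids, where 153 members were tested in both, and 14 of them were called under both scalings in both. Under both scalings 43 of the 153 were lower and 2 higher in long RNA, and 24 were lower and 21 higher in small RNA. For 8 of the 14 both kinds of RNA fell: MER68B, MLT1B, MLT1C, MLT1D, MLT1F, MTE2a, MTE2b and ORR1E, which is 18.6% of the 43 and 33.3% of the 24, where 15.7% of the 153 were lower in small RNA. Over all 794 elements tested in both, 19 fell in both, which is 15.2% of those lower in long RNA and 18.8% of those lower in small RNA. For 5, long RNA fell while small RNA rose: MTB_Mm-int, MTC-int, ORR1A0-int, ORR1A2 and ORR1A4. For LTR55 both were called higher, its small RNA from 0, 0 and 0.611 counts in CTRL to 2.28, 3.43 and 4.96 in cKO. LTR55 passed the limit of total counts for small RNA only through its cKO libraries, so that call is not read as a rise. The 5 are 11.6% of the 43, and over all elements the same held for 11.2% of those lower in long RNA. With the calls of the reported scaling alone, 21 were lower in both and 14 lower in long but higher in small RNA, out of 95 lower in long RNA and of 29 lower and 22 higher in small RNA. The 21 are 22.1% of the 95 and 72.4% of the 29, and the 14 are 14.7% of the 95, where over all elements these shares were 17.9%, 54.1% and 10.6%. Whether the members differ from all elements here was not tested. The members called under both scalings in both kinds of RNA were named after their values were seen. MTB_Mm-int had a log2FC of -1.23 in long and 1.52 in small RNA, MTC-int -0.97 and 0.54, ORR1A2 -0.64 and 0.77, and ORR1A4 -0.67 and 0.38. In ORR1A0-int small RNA had 115, 123 and 119 counts in cKO and 79.9, 83.5 and 78.8 in CTRL (log2FC 0.56 ± 0.14 SE, adjusted p = 0.0159), against a long RNA log2FC of -1.48, and its call was lost without any 1 of the 3 CTRL libraries. In spermatocytes no difference in its small RNA was detected (log2FC 0.00 ± 0.12 SE, adjusted p = 0.994). The LTR ORR1A0 had few small RNA counts (19.4, 43.4 and 32.7 against 19.7, 14.3 and 16.5; log2FC 0.93 ± 0.31 SE, adjusted p = 0.0556).

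Between CTRL cell types, small RNA rose for 21 of 152 members and fell for 36 from spermatocytes to round spermatids (15.8% and 17.1% of all repeats), and scaling by piRNA clusters gave 15 and 42 (10.9% and 20.7%). MT2_Mm fell, from 231, 324, 237, 240.0 and 201 counts in spermatocytes to 113, 104 and 99.3 in round spermatids (log2FC -1.23 ± 0.14 SE, adjusted p = 7.04e-06), and so did MTA_Mm (log2FC -0.99 ± 0.07 SE, adjusted p = 9.92e-08), LTR75 (log2FC -1.11 ± 0.19 SE, adjusted p = 0.000269), MERVL-int (log2FC -0.48 ± 0.07 SE, adjusted p = 5.78e-05) and ORR1A0-int (log2FC -0.57 ± 0.12 SE, adjusted p = 0.00133). ORR1A4-int (log2FC 0.50 ± 0.04 SE, adjusted p = 1.75e-07), MLT2B3 (log2FC 0.46 ± 0.07 SE, adjusted p = 0.00013) and MER68-int (log2FC 0.43 ± 0.04 SE, adjusted p = 1.01e-06) rose most among members with at least 50 counts, and ORR1F-int rose by 0.30 ± 0.03. In cKO animals no member was called by edgeR (0 of 162, with 4 higher and 6 lower at an unadjusted p under 0.05, and 0 by DESeq2), and 0% of all repeats were. MTA_Mm was -0.25 ± 0.14 (adjusted p = 0.656) and MT2_Mm -0.47 ± 0.25 (adjusted p = 0.615) in that comparison. The cKO libraries differed more from each other than the CTRL libraries did, with a chi-square over repeats, divided by its degrees of freedom, of up to 58.3 between a pair of cKO libraries and up to 7.22 between a pair of CTRL libraries. The 2 comparisons share no library, and their difference was not tested.

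**Figure D5:**
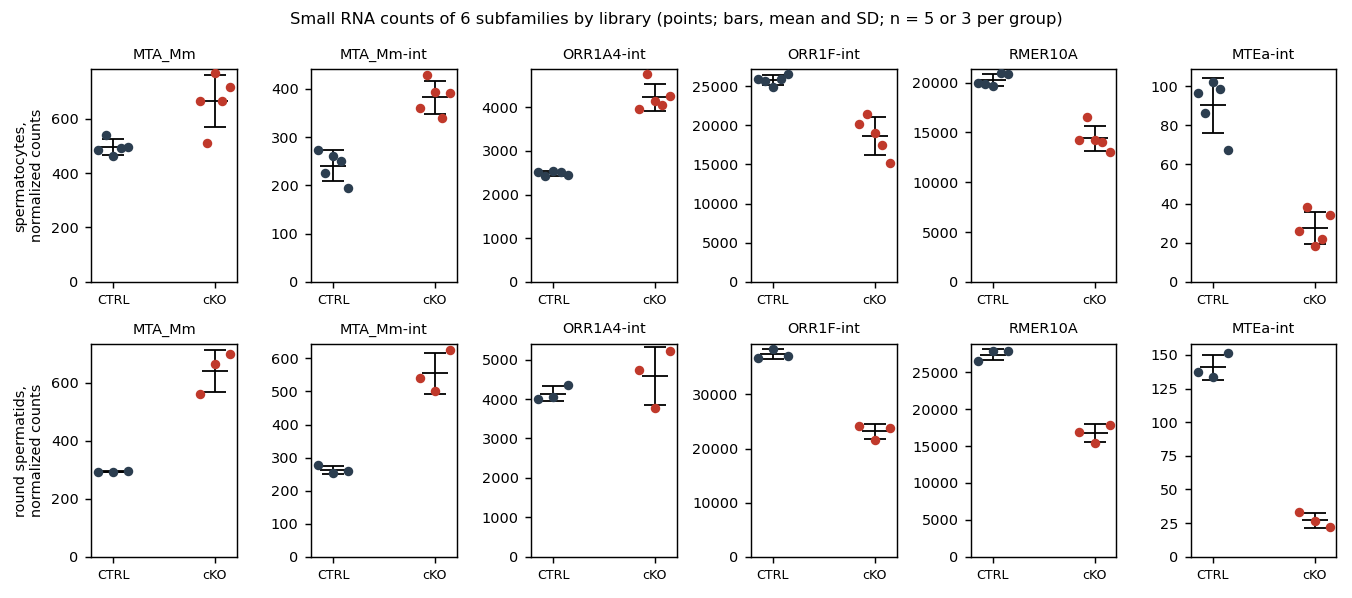
Normalized small RNA counts (y axes, each from 0) of 6 subfamilies in spermatocytes (top, 5 libraries per group) and round spermatids (bottom, 3 per group), with points for libraries and bars for mean and SD. MTA_Mm and MTA_Mm-int are higher in cKO and ORR1F-int, RMER10A and MTEa-int lower, with no overlap in round spermatids.

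Genes that silence LTR elements were compared in the same long RNA fits. Of 31 such genes in the table, 7 rose and 2 fell in cKO spermatocytes (11.6% and 11.7% of all rows), 18 rose and 8 fell in cKO round spermatids (35.3% and 30.0%), and 6 rose and 4 fell in cKO CBs (12.3% and 15.1%), all scaled with genes. In round spermatids 6 of 10 spermatocyte and 5 of 8 spermatogonia markers rose as well, and their part in these values was not tested. Dnmt1, the maintenance DNA methyltransferase, rose in all 3 (log2FC 0.79, 2.33 and 0.97), and Dnmt3l, the cofactor of de novo methylation, fell in all 3 (-2.04, -2.48 and -1.66). In round spermatids Setdb1, an H3K9 methyltransferase, rose (log2FC 0.90 ± 0.09 SE, adjusted p = 4.46e-05), as did Piwil1, the PIWI protein of pachytene piRNAs (0.80 ± 0.23, adjusted p = 0.0146), and Mov10l1, the helicase of piRNA processing (1.00 ± 0.18, adjusted p = 0.00114). Mael (-0.75 ± 0.06, adjusted p = 1.6e-05) and Gtsf1 (-1.32 ± 0.08, adjusted p = 3.53e-06), both factors of piRNA-guided silencing, fell there. A further list held 28 genes of the MERVL-linked programme of the 2-cell stage and its regulators. Of these, 13 were tested in spermatocytes with 2 higher and 1 lower, 15 in round spermatids with 2 higher and 3 lower, and 10 in CBs with 0 higher and 1 lower, which is to be read beside the same shares of all rows. Dux, the activator of MERVL and 1 of the 3 lower in round spermatids, had a mean of 57.6 counts in cKO and 109 in CTRL there (log2FC -0.92 ± 0.32, adjusted p = 0.0335). The median log2FC of the 15 tested there was -0.04.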

How the data were processed

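Deposited counts per gene and per repeat subfamily were used for long RNA. As the study's methods describe them, the authors trimmed reads with cutadapt 2.8, aligned them with STAR to GRCm38 and counted genes and repeats together with TEtranscripts in stranded mode, which shares multi-mapped reads among copies. For small RNA the authors aligned reads with HISAT2 2.1.0 to mm10 and counted them over RepeatMasker repeats, and the deposited values are estimated counts that need not be whole, which were rounded here. The read length window was not given in the sources used here. Rows with fewer than 10 counts in total were left out, and groups were compared with edgeR 4.0.16 (TMM, quasi-likelihood test, Benjamini-Hochberg over all rows tested, adjusted p of at most 0.05) in R 4.3.3. Scaling among elements or by piRNA clusters, library size alone, DESeq2 1.42.0, a stricter filter, a replicate block, leaving out single libraries and, chosen after seeing the data, splits of the CB CTRL libraries were the alternatives. The code was tested on simulated data, where the share of false calls exceeded the threshold in long RNA of spermatocytes, of CBs and between cell types. Shares were compared by exact permutation tests, two-sided. Named in the text are MERVL-int, MT2_Mm, MTA_Mm and its internal part, MTC, ORR1A0 and its internal part, ORR1E, MLT1A0, the 3 members with most counts and, per comparison, at most the 3 highest and 3 lowest log2FC among called members with a mean of at least 50 normalized counts. Members that cross a group's direction, and those in counts of 5 or fewer, were named after their values were seen. Columns of CB and small RNA tables name a group but not a sample, so library numbers there follow the table. The members, gene lists and marker lists were chosen with earlier results of these data known.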

Additional observations from a re-analysis of the deposited data

Results flagged for a closer look

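In 3 of 56 groups of 4 or 5 libraries checked over the named members, 1 library lay far from the others by Dixon's criterion, which chance alone meets in about 1 of 20 groups. MLT1A0 had 5275 normalized counts in the second CTRL library of CBs, with the next at 3691. ORR1E had 13205 in that same library, with the next at 9223. In small RNA of CTRL spermatocytes MLT1A0 had 12582 counts in the fifth library, with the next at 12172.

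The genotype difference of 7 named members differed between round spermatids and spermatocytes in the interaction test scaled with genes. MLT1F1 had an interaction of -1.31, with a log2FC of -0.31 in spermatocytes and -1.54 in round spermatids, and it was the 1 of the 7 still called among elements (-0.76). For MER73 the interaction was -1.35, from 0.00 in spermatocytes to -1.26 in round spermatids, and its call was lost when any of 9 of the 12 libraries was left out. LTR16E1 had -1.25, with 0.98 in spermatocytes and -0.19 in round spermatids. The interactions of ORR1E (-0.78), MLT1A0 (-0.68), RMER15 (-0.59) and MTD (-0.57) came with differences close to 0 in spermatocytes and between -0.72 and -0.42 in round spermatids, and the call of MTD was lost in 7 of the 12 leave-outs. Late spermatid markers were lower in cKO libraries of both cell types, and the macrophage, Leydig and Sertoli markers were higher in cKO round spermatids. Their part in these differences was not tested.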

How the results depend on the processing

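Of 1862 values of named members under the alternatives, 1689 stayed on their side of the threshold with no called value changing direction, and in 90 of these an uncalled value changed sign. Among elements, higher and lower members were 14 and 51 in round spermatids, 6 and 1 in CBs and 1 and 4 in the interaction, lower members were 9 in spermatocytes and 39 between CTRL cell types, and higher members were 38 between cKO cell types. With library size alone they were 19 and 23 in round spermatids, 46 and 40 between CTRL cell types (22.6% and 47.5% of all rows, 15.3% and 26.0% of all elements), 6 and 2 in the interaction, 62 and 22 in small RNA of spermatocytes, and 48 and 18 in small RNA of round spermatids, and 18 were higher between cKO cell types (21.6% of all rows, 5.79% of all elements). Library size alone differs from the reported fit only in the scaling. The fit among elements also leaves out all gene rows, so its dispersions and its adjustment of p-values rest on elements only. In CBs DESeq2 and the stricter filter each called 2 higher, CTRL libraries 1 and 4 alone gave 3 higher and 3 lower, and CTRL libraries 2 and 3 alone gave 0 and 1. This split of the CB controls was chosen after seeing the data.

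Leaving out single libraries gave 2 to 5 higher and 1 to 4 lower in spermatocytes, 1 to 3 higher and 80 to 127 lower in round spermatids, 0 to 4 higher and 3 to 34 lower in CBs, 1 to 15 higher and 16 to 26 lower between cKO cell types, and 35 to 94 lower in the interaction. The count of higher members between cKO cell types fell to 2 without the first spermatocyte library, 4 without the third, and 1 and 2 without the first and the second round spermatid library. The interaction had 94 lower without the first CTRL spermatocyte library, 35 without the second and 36 without the third. Small RNA of round spermatids had 14 to 37 higher, with 37 without the second cKO library and 14 without any CTRL library.

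The sign of some log2FC values turned with the scaling. Among elements the log2FC was 0.0020 for MTC and 0.030 for MTD in round spermatids, and between CTRL cell types it was -0.21 for MTA_Mm, -0.29 for MTA_Mm-int, -0.32 for MTC and -0.10 for MTD. With library size alone it was 0.069 for MTA_Mm, 0.12 for MTC and 0.13 for MTD in round spermatids, -0.26 for MTA_Mm, -0.34 for MTA_Mm-int, -0.37 for MTC and -0.15 for MTD between CTRL cell types, 0.041 for MTD and 0.020 for RMER15 in the interaction, 0.0033 for ORR1E in small RNA of spermatocytes and 0.0014 in that of round spermatids, and 0.11 for MTC in small RNA of round spermatids.

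The replicate block gave 3 higher and 2 lower in spermatocytes, 3 and 107 in round spermatids, 96 and 19 between CTRL cell types, 13 and 29 between cKO cell types, and 0 and 54 in the interaction. Libraries with the same number did not deviate together throughout (r of 0.19, -0.18 and 0.33 in spermatocytes, -0.14, -0.17 and 0.11 in round spermatids, -0.19, -0.14 and -0.27 between CTRL and -0.09, 0.61 and 0.31 between cKO cell types), and whether they share an origin is not known. The tests without the block treat all libraries as independent. For CBs and small RNA no block could be fitted, because their column names give no sample number. The alternative restricted to libraries 1 to 3 was not run there for the same reason. CB depth and groups of 3 or 4 libraries limit what small differences can be seen.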
